A study of Homo sapiens with 15 samples.

Results

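The 10 genes described here encode damage recognition and excision factors of nucleotide excision repair (DDB1, DDB2, XPC, RAD23B, XPA, ERCC2 and ERCC5) and the GADD45 family (GADD45A, GADD45B and GADD45G). They were listed by symbol, with earlier results of these data known. They are 10 of the 23368 rows of the deposited expression table. All 15 libraries came from U2OS, an established human osteosarcoma line with wild-type p53, grown in serum-containing medium and given either Nutlin or its solvent DMSO. Nutlin occupies the p53 pocket of MDM2, a ubiquitin ligase for p53, and was used at 10 µM, the unit prefix being missing from the labels. Asynchronous cells gave 3 DMSO and 3 Nutlin libraries, and the sources used here do not say how long they were exposed. Non-released cells (2 DMSO and 2 Nutlin libraries) went through a double thymidine block, 2 mM for 16 h, 8 h without and 16 h again, with Nutlin or DMSO added 4 h before the point of release and the block kept. S-phase cells (3 DMSO and 2 Nutlin libraries) had the same treatment and were washed free of thymidine, then harvested 4 h later with Nutlin or DMSO still present. Whether replicates came from different cultures is not stated in the labels, so that every p-value below reflects the spread among these libraries, which may be technical.

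Nucleotide excision repair removes bulky, helix-distorting lesions such as ultraviolet photoproducts. DDB2 with DDB1, and XPC with RAD23B, find the lesion, XPA helps to verify it, the TFIIH helicase ERCC2 (XPD) opens the helix, and endonucleases including ERCC5 (XPG) cut out the damaged stretch. The GADD45 proteins are small stress-induced proteins that bind PCNA, CDK1 with cyclin B1, and the kinase MAP3K4. DDB2, XPC and GADD45A are known targets of p53, the factor that Nutlin releases from MDM2.

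Promoter sequence is shown first, because DDB2 is among the genes with higher values under Nutlin and its start region holds a full match to the p53 consensus. RefSeq windows (GRCh38.p14) of 250 bases before to 50 after each annotated start matched 9 of the 10 symbols, in 12 windows. GADD45A was not matched. Each window was searched on the strand as given (the p53 consensus reads the same on both strands) for the p53 consensus response element, 2 decamers with 0 to 13 bases between them, with the core C and G of each decamer required. A full match occurred in 10 of all 35116 RefSeq windows of this length (0.0285%), and one of them is the second of 2 DDB2 windows. It lies at chr11:47214979-47214999 on the plus strand and begins at base +6 counted from that start. Counted from the first exon base that GENCODE v29 gives inside the window, it begins at base 38. The gene, strand and coding part of that exon were not checked. The closest stretches of GADD45B, at chr19:2476015-2476039 on the plus strand with 3 mismatches, and of XPC, at chr3:14178658-14178687 on the minus strand with 4, are set beside the DDB2 match. XPA and a RAD23B window also had stretches with 4 mismatches, which are not shown, and XPC is shown for its values under Nutlin. Capitals mark bases that match the consensus, and lower case marks mismatches and the bases between the decamers.
DDB2: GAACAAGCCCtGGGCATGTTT
GADD45B: GAGCTAGCTgcactcGccCTTGTCT
XPC: tGACTAGgCCtccaacgaagGGGCgTGgCC
The bases of this DDB2 window before that exon, chr11:47214724-47214941 on the plus strand, are given for context, in lower case throughout.
DDB2 upstream: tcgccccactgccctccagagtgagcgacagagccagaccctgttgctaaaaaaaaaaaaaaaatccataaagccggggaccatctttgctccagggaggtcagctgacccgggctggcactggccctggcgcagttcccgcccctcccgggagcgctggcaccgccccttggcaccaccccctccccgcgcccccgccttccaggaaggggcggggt
With up to 2 mismatches allowed, 2.93% of all windows held such a stretch, and no window of the other members did. With up to 3 mismatches the share was 12.8% and with up to 4 it was 35.4%. A match in letters is a description of the sequence. These windows do not cover introns or distant regions.

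Reads assigned to genes came to 6.05 to 23.38 M per library (median 15.93), so that 3 reads, the limit taken for a count of 0, correspond to 0.128 to 0.496 counts per M, which covers counting error only. The values below are the authors' variance-stabilised values, which run on a log2 scale at high expression, and a gene with 0 reads has 4.859. Of the markers of bone and mesenchymal cells, VIM and SPARC stood at 27808 and 11653 normalised reads or more in every library, while TWIST1 was at 0 and COL1A2 at no more than 8.68 throughout (normalised reads are recovered reads divided by the authors' size factor). Library DMSO asynchronous replicate 3 stood apart: 13 of 15 epithelial markers were highest there, with a summed level of 42917 normalised reads against 12611 to 17654 in the other 14 libraries, and KRT19 at 7826 against at most 33.9. Its bone and mesenchymal markers summed to 59969 against 63765 to 88563. Markers of blood cells summed to 2.14 to 15.01 in the other 14 libraries and 10.1 in this one, with CD3E at 0 in all. In the same library the p53 targets that check the treatment labels, CDKN1A (14.10) and MDM2 (14.77), were above the other DMSO asynchronous libraries (11.47 and 11.45, and 12.44 and 12.50) and above the highest Nutlin asynchronous ones (13.59 and 14.71). CDKN1A and MDM2 were called in none of the 3 Nutlin comparisons with this library (limma, adjusted p from 0.0526 to 0.597) and in all 3 without it. The shallowest library was DMSO S-phase replicate 2. Values without these 2 libraries are given as values over 13 libraries. Differences were tested with limma over all libraries, and adjusted p under 0.05 counts as a call. Of the 10 genes 9 passed the filter on low values.

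**Figure D1:**
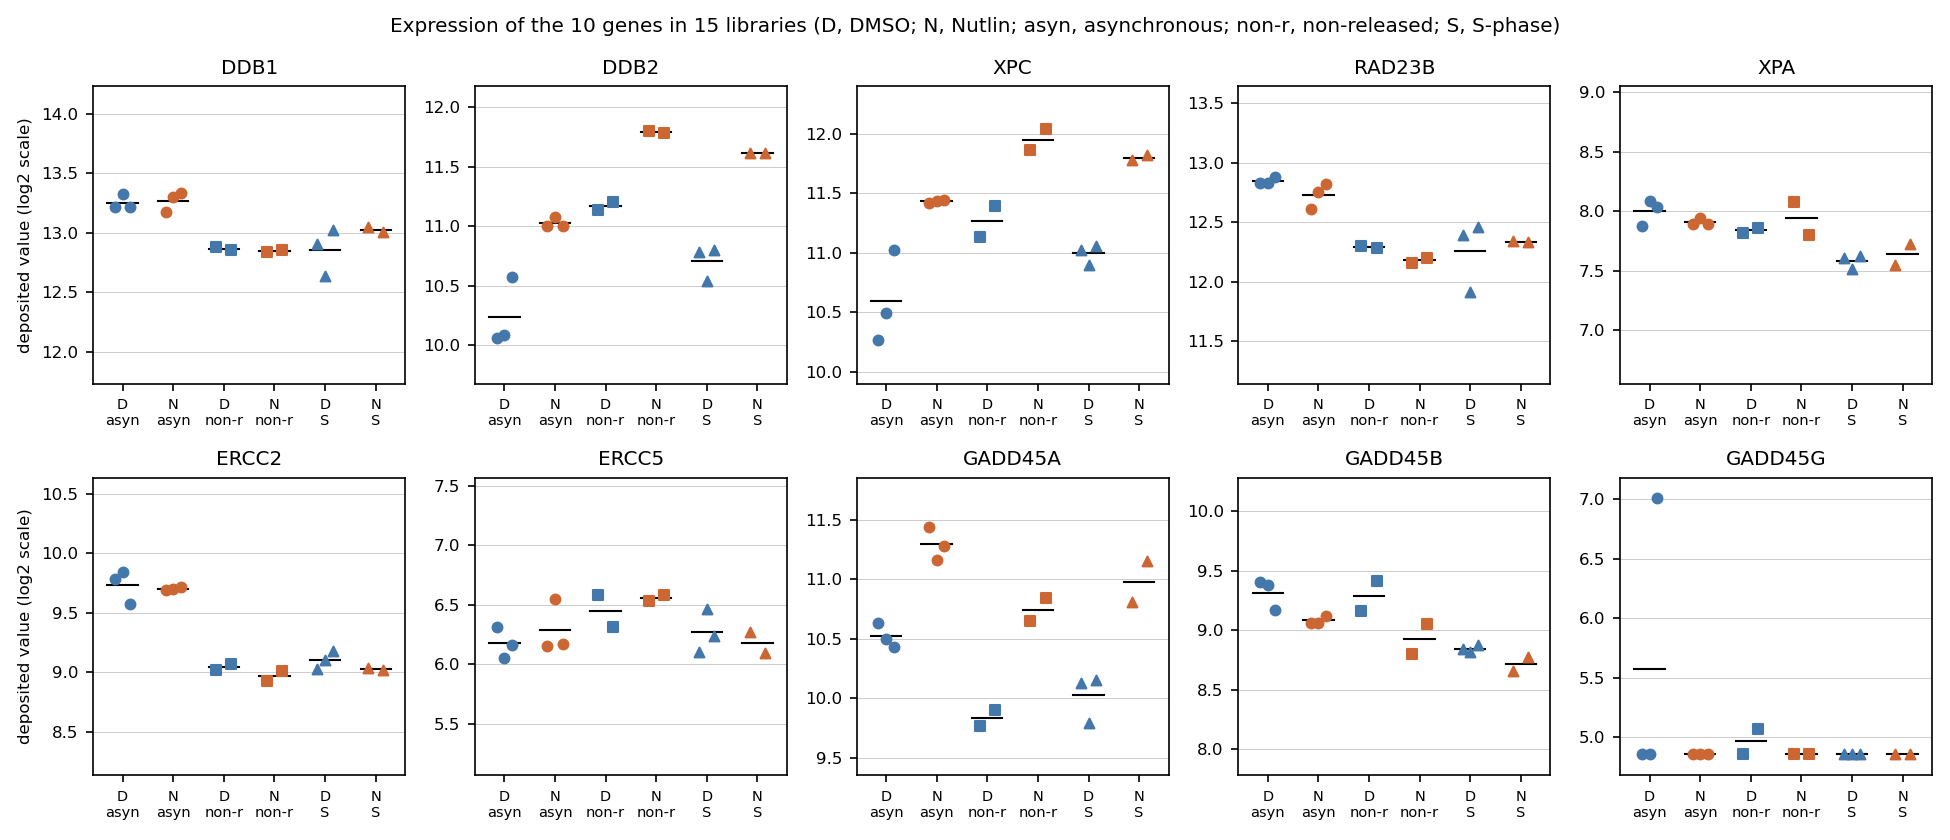
Deposited values (vertical axis, log2 scale, the same span of units in each panel but different positions) of the 10 genes in 15 libraries. Each point is 1 library, the bar is the group mean, D is DMSO, N is Nutlin, and the groups are asynchronous (asyn), non-released (non-r) and S-phase (S) cells. DDB2, XPC and GADD45A have every Nutlin library above every DMSO library of the same state, and GADD45G is at the floor of 4.859 in 13 of 15 libraries.

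Per length of exon, the levels differed over a wide range. As normalised reads per kb of exon, DDB1 had group means from 1623 to 2179 and RAD23B from 1076 to 1715. DDB2 ranged from 625 to 1864 on this scale, GADD45A from 572 to 1644, and XPC from 398.4 to 1020. The order of these genes depended on the group: DDB1 was highest in 5 of 6 groups, and in Nutlin non-released cells DDB2 (1864) stood above DDB1 (1623). The remaining genes were lower in every group: GADD45B from 235 to 375, ERCC2 from 100.4 to 180.0 and XPA from 97.5 to 142. ERCC5 is left out of this order, because the gene BIVM and a read-through transcript overlap it on the same strand. It had only 14 to 63 reads per library, and its values are uncertain. GADD45G had 0 reads in 13 libraries. It had 76 reads in DMSO asynchronous replicate 3, the library with the high epithelial markers, and 1 read in DMSO non-released replicate 2, and it was not tested. The part of that library's other markers in the GADD45G value was not tested.

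Under Nutlin, DDB2, XPC and GADD45A rose in asynchronous and in S-phase cells, and GADD45A rose in non-released cells, with folds between 1.71 and 1.94. The other 6 tested genes passed in none of the 3 states. In asynchronous cells 3 of 9 tested members were called, all higher, where 2.45% of all 14298 tested genes were called (1.91% higher). In non-released cells 1 of 9 was called, higher, against 0.916% of all genes (0.874% higher). In S-phase cells 3 of 9 were called, all higher, against 2.00% (1.84% higher). The median difference of the 9 was 0.01, 0.10 and 0.08 in the 3 states, beside −0.02, −0.02 and −0.01 over all tested genes. DDB2, XPC and GADD45A had every Nutlin library above every DMSO library in all 3 states, which 8.49%, 20.0% and 13.8% of all tested genes also had in the states in that order.

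DDB2, the lesion-binding subunit of the UV-DDB complex, had 10.058, 10.087 and 10.574 in the DMSO asynchronous libraries and 11.005, 11.075 and 10.998 in the Nutlin ones. It had 11.14 and 11.20 against 11.80 and 11.78 in non-released cells. It had 10.78, 10.54 and 10.80 against 11.62 and 11.61 in S-phase cells. Nutlin libraries were above DMSO libraries without overlap in each state. The difference was 0.79 ± 0.12 (SE) in asynchronous cells, a fold of 1.72 (limma, adjusted p = 0.00161, n = 3 and 3). It was 0.91 ± 0.13 in S-phase cells, a fold of 1.88 (limma, adjusted p = 0.00174, n = 2 and 3). In non-released cells the difference of 0.62 ± 0.14 was not called (limma, adjusted p = 0.0656, n = 2 and 2). All groups share 1 estimate of spread per gene in this fit, and DMSO asynchronous replicate 3 is the high library of its group for DDB2. Over 13 libraries the non-released difference, again 0.62, passed (limma, adjusted p = 6.38e-05). Over 13 libraries the asynchronous difference was 0.95 and the S-phase one 0.82, both called. DDB2 was called in asynchronous and in S-phase cells under each of the 24 alternatives. The antisense gene AC018410.2 overlaps DDB2.

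XPC, the sensor of helix distortion, had 10.26, 10.50 and 11.02 in the DMSO asynchronous libraries and 11.42, 11.44 and 11.44 in the Nutlin ones. It had 11.13 and 11.39 against 11.86 and 12.04 in non-released cells. In S-phase cells it had 11.03, 10.90 and 11.06 against 11.77 and 11.82. Again the groups did not overlap, and the Nutlin asynchronous libraries lay close together while the DMSO ones spread widely. XPC rose by 0.84 ± 0.15 in asynchronous cells, a fold of 1.79 (limma, adjusted p = 0.00551), and by 0.80 ± 0.16 in S-phase cells, a fold of 1.74 (limma, adjusted p = 0.0192). The S-phase call was lost without Nutlin S-phase replicate 1 or 2 (limma, adjusted p = 0.123 and 0.14), without DMSO S-phase replicate 1 (0.0508) and with library totals in voom (0.076), and the asynchronous call in a fit of the 2 compared groups alone (0.0643). In non-released cells the difference was 0.69 ± 0.18 (limma, adjusted p = 0.111), which passed over 13 libraries (limma, adjusted p = 0.000671). Over 13 libraries the asynchronous difference was 1.05 and the S-phase one 0.75, both called. LSM3 overlaps XPC on the opposite strand, and the sources used here do not say if counting used the strand. Reads of the overlap cannot be told apart, and the same holds for DDB1 with TKFC and ERCC2 with KLC3.

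GADD45A, the family member best known as a p53 target, had 10.63, 10.49 and 10.43 in the DMSO asynchronous libraries and 11.44, 11.16 and 11.28 under Nutlin. It had 9.77 and 9.90 against 10.65 and 10.84 in non-released cells. It had 10.13, 9.79 and 10.15 against 10.81 and 11.15 in S-phase cells. Unlike DDB2 and XPC, it was not high in DMSO asynchronous replicate 3, which is the lowest of its group. GADD45A rose by 0.77 ± 0.12 in asynchronous cells (limma, adjusted p = 0.00236), by 0.91 ± 0.15 in non-released cells (0.00757) and by 0.96 ± 0.14 in S-phase cells (0.00145). These are folds of 1.71, 1.88 and 1.94. The non-released call was lost without either DMSO library (adjusted p = 0.131 and 0.0539) and without Nutlin replicate 2 (0.147), and the S-phase call without Nutlin S-phase replicate 2 (0.052) or with the compared groups alone (0.064). Leaving 1 of 2 libraries assumes that the lone library varies like the other groups.

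**Figure D2:**
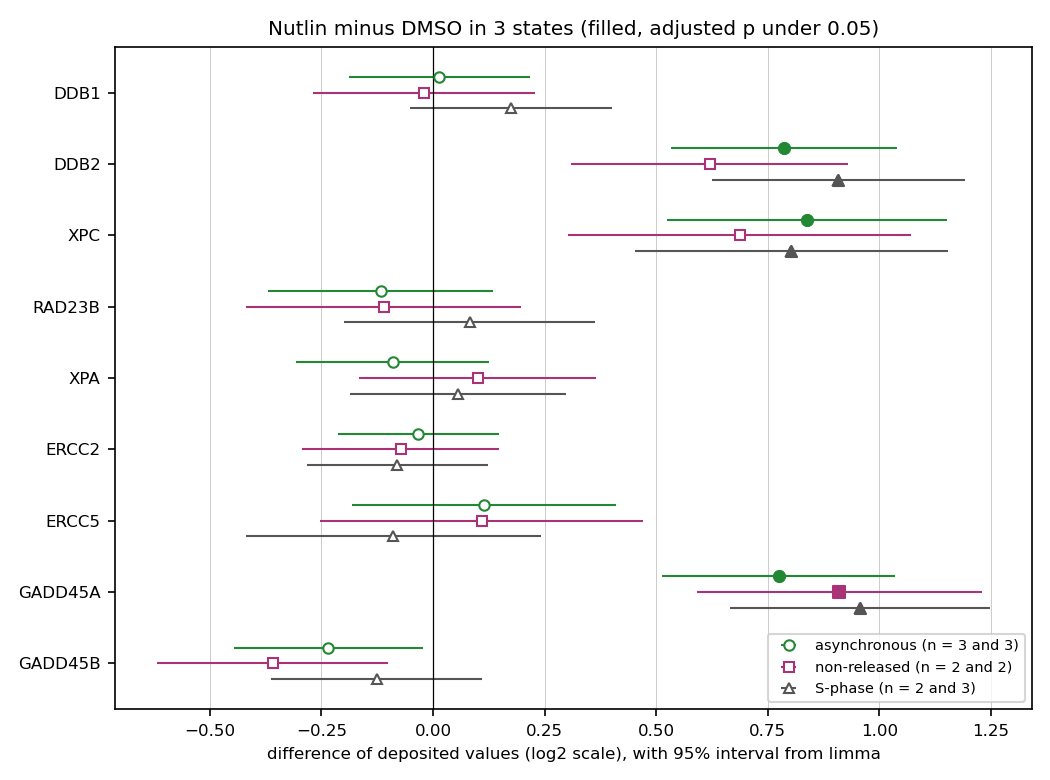
Nutlin minus DMSO in deposited values (horizontal axis, log2 scale) for the 9 tested genes in each of the 3 states, with the 95% interval from limma. Filled symbols have adjusted p under 0.05: DDB2, XPC and GADD45A in asynchronous and S-phase cells, and GADD45A in non-released cells, where it stands at 0.91.

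GADD45B, which shares the kinase and PCNA contacts of GADD45A, was lower under Nutlin in every state but did not pass the test. It had 9.41, 9.38 and 9.17 in the DMSO asynchronous libraries and 9.07, 9.06 and 9.13 under Nutlin. It had 9.17 and 9.41 against 8.80 and 9.06 in non-released cells, and 8.85, 8.82 and 8.88 against 8.66 and 8.78 in S-phase cells. Every Nutlin library lay below every DMSO library of its state, a pattern that 9.64%, 25.7% and 12.0% of all tested genes showed in the 3 states. RAD23B had it in asynchronous and non-released cells and ERCC2 in non-released cells. The differences were −0.23 ± 0.10, −0.36 ± 0.12 and −0.13 ± 0.11 (limma, adjusted p = 0.337, 0.318 and 0.642).

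DDB1, the adaptor that joins DDB2 to the CUL4 ubiquitin ligase, had 13.22, 13.33 and 13.22 in the DMSO asynchronous libraries and 13.17, 13.30 and 13.33 under Nutlin. Its differences were 0.01, −0.02 and 0.17 in turn, with 95% intervals within −0.27 and 0.40. For RAD23B, the partner that stabilises XPC, they were −0.12, −0.11 and 0.08. Over 13 libraries the S-phase value of RAD23B was −0.09, not called either. DDB1 and RAD23B, the partners of DDB2 and XPC, thus gave no call where DDB2 and XPC did, and that contrast between partners was not itself tested. XPA, the scaffold that binds near the lesion, had differences of −0.09, 0.10 and 0.06. For ERCC2 they were −0.03, −0.07 and −0.08, and for ERCC5 0.11, 0.11 and −0.09. Adjusted p of these 5 genes was 0.51 or more in each state. An adjusted p that misses the threshold does not show that a gene did not change.

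The Nutlin response was not called different between states for any member. None of the 9 genes was called in the 3 tests of that difference (limma; 0% of all genes called in each), none had an unadjusted p under 0.05, and none was called by voom. DDB2 had the lowest unadjusted p, 0.163, for an S-phase response 0.29 above the non-released one, with a 95% interval from −0.13 to 0.71. For XPC the interval of the same difference ran from −0.41 to 0.63, and for GADD45A from −0.39 to 0.48. Over 13 libraries the DDB2 response was smaller in non-released than in asynchronous cells by 0.33 ± 0.09 and the XPC response by 0.36 ± 0.13, neither of which was called (limma, adjusted p = 0.691 and 0.9999), while 0.0211% of all genes were. S-phase cells kept Nutlin for 4 h after release, and the exposure of asynchronous cells is not given. State and length of exposure to Nutlin cannot be told apart in these comparisons.

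Among the other genes of the pathway, 27 further nucleotide excision repair genes were in the table and 26 were tested. They include the remaining TFIIH subunits, the RPA single-strand binding subunits, the ERCC1 and ERCC4 endonuclease and the ligases. In none of the 3 states was 1 of the 26 called under Nutlin by limma or by voom. At an unadjusted p under 0.05 there were 3 in asynchronous, 0 in non-released and 2 in S-phase cells. The share of all genes at that unadjusted threshold is not given, here or for the counts below. Over 13 libraries RPA2, named because it was the only call, was called in asynchronous cells at −0.29, where 6.26% of all genes were called. The median difference of the 26 genes in the 3 states was 0.00, −0.01 and 0.01 over 15 libraries. It was −0.03, −0.01 and −0.04 over 13 libraries. Of 13 partners and kinases of GADD45, PCNA, the sliding clamp, rose in asynchronous cells by 0.50 ± 0.10 (limma, adjusted p = 0.0155) and in S-phase cells by 0.83 ± 0.11 (0.000962). Its non-released difference was 0.42 (0.186). The other 12 were not called in these comparisons over 15 libraries. Over 13 libraries CDK1 (−0.33) and CCNB1 (−0.37) were called lower in asynchronous cells, and PCNA was called in all 3 states. At an unadjusted p under 0.05 there were 1, 2 and 1 of the 13 in the 3 states, PCNA included.

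**Figure D3:**
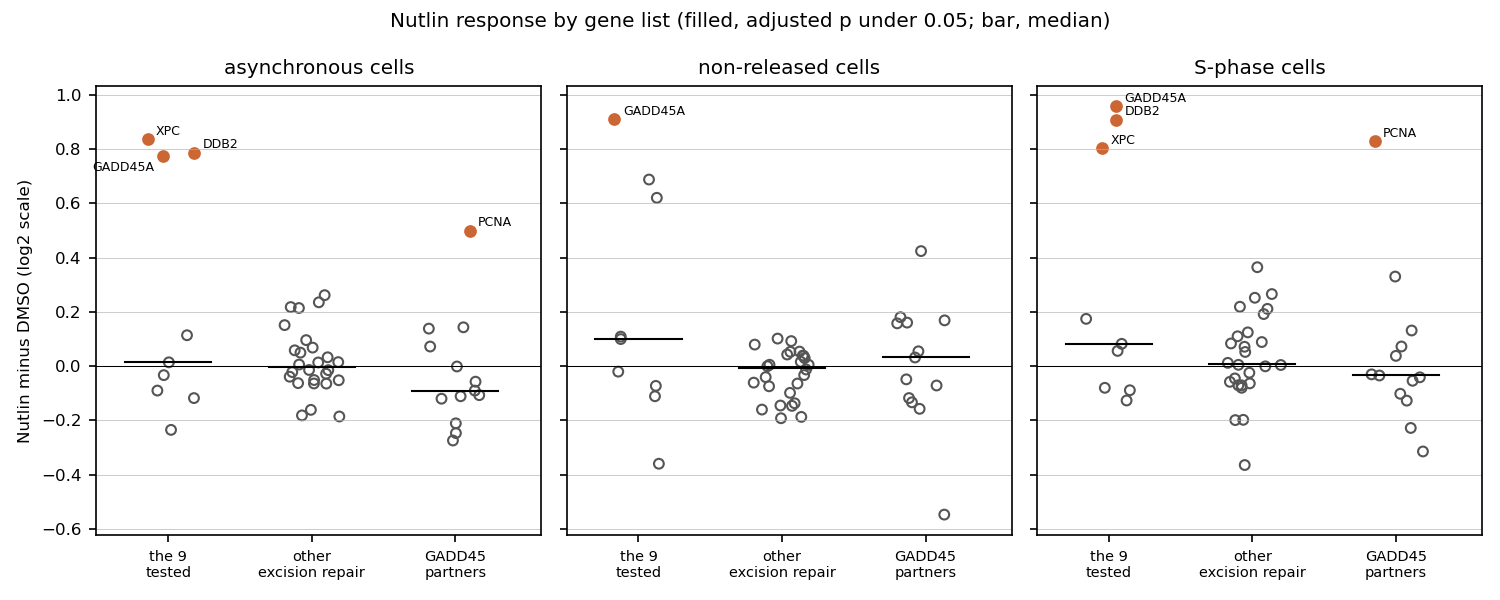
Nutlin minus DMSO in deposited values (vertical axis, log2 scale) of the 9 tested genes, 26 other nucleotide excision repair genes and 13 GADD45 partners and kinases, 1 panel per state. Each point is a gene, bars are medians, sideways scatter only separates points, and filled points (named) have adjusted p under 0.05. The filled points are DDB2, XPC, GADD45A and PCNA, and none lies among the 26 other repair genes.

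Between cell states the set split, and the state comparisons below share the asynchronous libraries with each other. S-phase cells kept Nutlin or DMSO for 4 h after release, and the exposure of asynchronous cells is not given. State and length of exposure cannot be told apart. In DMSO, 6 of 9 members differed between non-released and asynchronous cells, 2 higher and 4 lower, where 33.9% of all genes were called (16.9% higher and 17.0% lower). A lower value can mean less RNA per cell or fewer cells with the transcript, which these bulk libraries cannot tell apart. DDB2 was higher in non-released cells by 0.93 ± 0.13 (limma, adjusted p = 0.000187) and XPC by 0.67 ± 0.16 (0.00665). Both non-released DMSO libraries lay above all 3 asynchronous ones for both genes, DMSO asynchronous replicate 3 included. ERCC5 showed the same without a call, and the share of all tested genes with this pattern is not given here. Over 13 libraries the differences were 1.098 for DDB2 and 0.88 for XPC, both called. ERCC2 fell by 0.69 ± 0.09 (limma, adjusted p = 0.000142), from 9.79, 9.85 and 9.57 to 9.02 and 9.07. GADD45A fell by 0.69 ± 0.14 (0.00181), RAD23B by 0.55 ± 0.13 (0.00548) and DDB1 by 0.39 ± 0.11 (0.0125). RAD23B went from 12.83, 12.83 and 12.88 to 12.30 and 12.28, and DDB1 from 13.22, 13.33 and 13.22 to 12.88 and 12.86. Scaling by library totals in voom moved the median difference of all genes from −0.009 to 0.144 and the share of higher calls from 49.9% to 72.0%. It kept these 6 directions, but DDB1, −0.24, was then not called (adjusted p = 0.106). Without DMSO non-released replicate 1 or 2, DDB1 had adjusted p = 0.064 and 0.0879, and without replicate 2 XPC had 0.0944. With the 2 compared groups alone XPC had 0.0647.

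Under Nutlin, members differed between the same states in the same count, 2 higher and 4 lower of 9, where 34.5% of all genes were called (17.3% higher and 17.2% lower). DDB2 was higher in non-released cells by 0.76 ± 0.13 and XPC by 0.52 ± 0.16. ERCC2 fell by 0.73 ± 0.09, GADD45A by 0.55 ± 0.14, RAD23B by 0.55 ± 0.13 and DDB1 by 0.42 ± 0.11. The largest adjusted p of the 6 was that of XPC, 0.0249 (limma), and leaving out any of the 5 libraries compared took XPC past the threshold (0.0541 to 0.173). DDB1 also lost its call without Nutlin non-released replicate 2 (0.0511). Without Nutlin non-released replicate 1, DDB2 and ERCC2 were the 2 calls left. GADD45A was thus the member that fell between asynchronous and non-released cells while it rose under Nutlin, whereas DDB2 and XPC were higher in both contrasts.

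In DMSO S-phase cells 7 of 9 members differed from asynchronous cells, 1 higher and 6 lower, where 27.7% of all genes were called (14.1% higher and 13.6% lower). DDB2 was higher by 0.47 ± 0.12 (limma, adjusted p = 0.0106), although DMSO S-phase replicate 2 (10.54) and DMSO asynchronous replicate 3 (10.57) overlapped. Without these 2 libraries the DDB2 difference was 0.72 (limma, adjusted p = 1.53e-05). Over 15 libraries it lost the call without DMSO asynchronous replicate 2 (adjusted p = 0.0503). ERCC2 (−0.63), RAD23B (−0.59), GADD45A (−0.50), GADD45B (−0.47), XPA (−0.42) and DDB1 (−0.40) were lower. DMSO S-phase replicate 2 was the lowest of its group for RAD23B (11.91 beside 12.39 and 12.46) and DDB1 (12.63 beside 12.90 and 13.02). Over 13 libraries RAD23B still fell, by 0.40. In a fit of the 2 compared groups alone only ERCC2 and GADD45B of the 7 kept their calls. XPC, 0.40 higher, was not called (adjusted p = 0.0561), but passed without DMSO asynchronous replicate 3, at 0.61 (limma, adjusted p = 0.00091), and over 13 libraries, at 0.66 (0.000255). Under Nutlin 4 of 9 were called in this comparison, 1 higher and 3 lower, against 24.0% of all genes (13.4% higher and 10.6% lower). DDB2 was higher by 0.59 ± 0.13, and ERCC2 (−0.68), RAD23B (−0.39) and GADD45B (−0.37) were lower. The GADD45B call was lost without any 1 of the 5 Nutlin libraries compared (adjusted p from 0.0552 to 0.176), and the RAD23B call in 13 of 24 alternatives. Over 13 libraries 7 members were called, where 41.2% of all genes were.

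**Figure D4:**
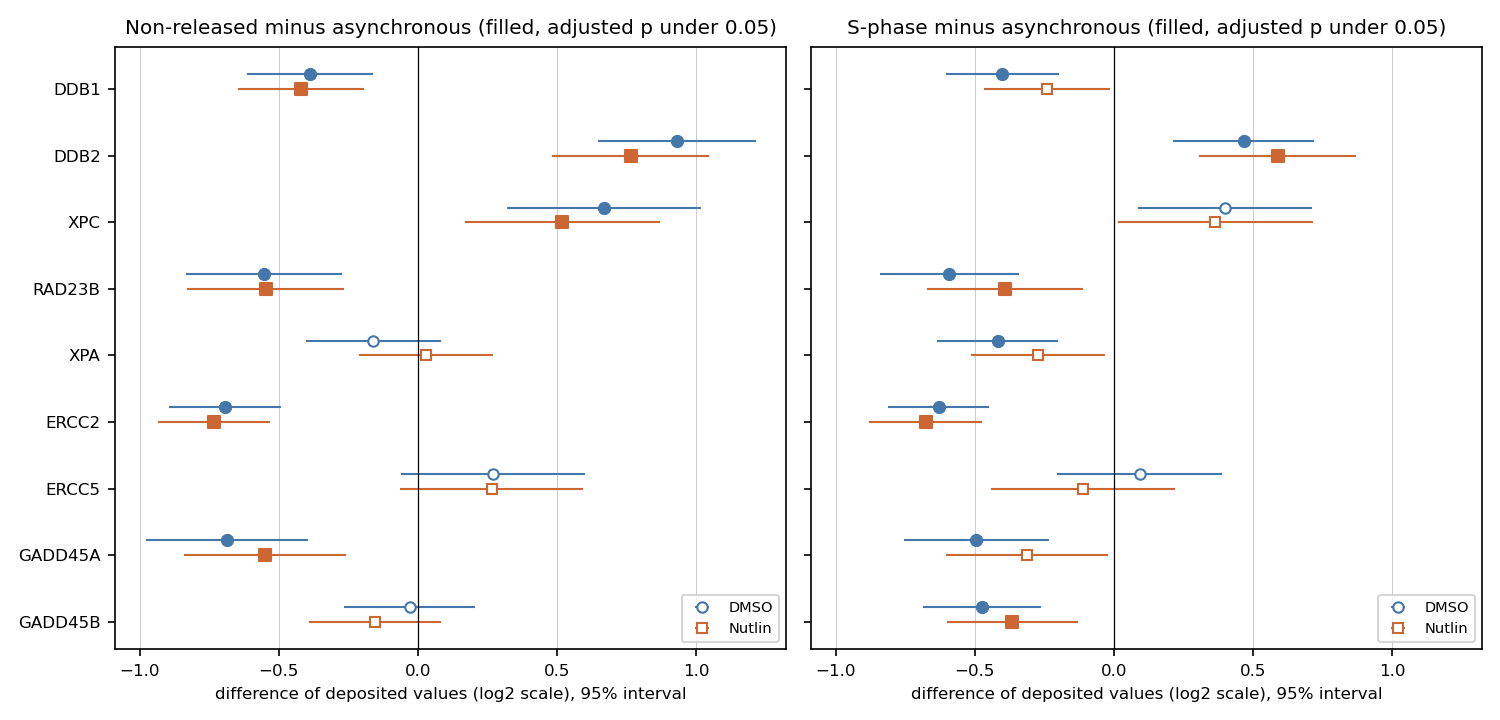
Non-released minus asynchronous (left) and S-phase minus asynchronous (right) differences in deposited values (horizontal axis, log2 scale) of the 9 tested genes, in DMSO and in Nutlin libraries, with 95% intervals from limma. Filled symbols have adjusted p under 0.05. DDB2 lies to the right of 0 in all 4 comparisons, at 0.93, 0.76, 0.47 and 0.59, and ERCC2 and RAD23B lie to the left, filled in all 4. XPC also lies to the right in all 4, and DDB1, GADD45A and GADD45B to the left, but filled in only some of them.

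Between S-phase and non-released cells little passed the test. In DMSO DDB2 (−0.46, limma, adjusted p = 0.0499) and GADD45B (−0.44, 0.0274) were lower in S-phase cells, 2 of 9 members against 6.99% of all genes (2.89% lower). The DDB2 call lay at the threshold and was lost in 16 of 24 alternatives. For GADD45B it was lost without either non-released DMSO library (0.0546 and 0.312) or DMSO S-phase replicate 1 (0.0647). Scaling by library totals kept both calls, but moved the share of higher calls over all genes from 58.7% to 38.5%. Under Nutlin 0 of 9 members were called (limma; 2.43% of all genes), and voom also called 0. At an unadjusted p under 0.05 there were 2, XPA and ERCC5.

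Of the 26 other repair genes, 2 were higher and 7 lower in DMSO non-released than in asynchronous cells, a share close to the 33.9% of all genes called there. LIG1, the replicative DNA ligase, was higher by 0.56 ± 0.09 and XRCC1, the scaffold of single-strand break repair, by 0.36 ± 0.08. USP7 (−0.70), LIG3 (−0.47), CUL4A (−0.40) and CCNH (−0.41) had the smallest p among those lower. This split depended on the scaling: with library totals in voom 7 were higher and 2 lower. Of the 13 GADD45 partners, MAP2K6 (1.20) and PCNA (0.70) were higher, and 4 were lower: CCNB1 (−0.66), MAP2K3 (−1.15), MAP2K4 and MAP2K7. In DMSO S-phase against asynchronous cells 2 repair genes were higher and 4 lower, and 2 partners higher and 3 lower, beside 27.7% of all genes. Under Nutlin the counts were 3 and 7 repair genes and 4 and 4 partners in non-released cells, and 3 and 5 repair genes and 4 and 2 partners in S-phase cells, each against asynchronous ones, beside 34.5% and 24.0% of all genes. Between S-phase and non-released cells 0 repair genes in DMSO (3 at an unadjusted p under 0.05, and 0 by voom) and 1 under Nutlin, ERCC1 (0.51), were called, beside 6.99% and 2.43% of all genes. Of the partners, MAP2K3 (1.11) was higher and MAP2K6 (−0.76), PCNA (−0.46) and MAPK14 (−0.28) were lower in DMSO, and MAPK14 (−0.34) was lower under Nutlin. MAP2K6, which activates p38, had at most 5.69 normalised reads on average in asynchronous groups and 52.4 in DMSO non-released cells.

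The levels of each gene over the 6 groups gave different orders. DDB2 was lowest in DMSO asynchronous cells (10.24 ± 0.29, SD, n = 3), then DMSO S-phase (10.71 ± 0.14, n = 3), Nutlin asynchronous (11.03 ± 0.04, n = 3) and DMSO non-released cells (11.17 ± 0.05, n = 2). It was highest in Nutlin S-phase (11.61, n = 2) and Nutlin non-released cells (11.79, n = 2). Of these neighbours only the lowest pair overlapped between libraries. XPC had the order DMSO asynchronous (10.59 ± 0.39), DMSO S-phase (10.99 ± 0.09), DMSO non-released (11.26 ± 0.19), Nutlin asynchronous (11.43 ± 0.01), Nutlin S-phase (11.80 ± 0.03) and Nutlin non-released (11.95 ± 0.12). Again only the lowest pair overlapped, through DMSO asynchronous replicate 3. The share of all genes with neighbours so separated is not given here. GADD45A ran from DMSO non-released (9.83 ± 0.09) and DMSO S-phase (10.02 ± 0.20), whose libraries overlapped, to DMSO asynchronous cells (10.52 ± 0.10). Above these stood Nutlin non-released (10.74 ± 0.14) and Nutlin S-phase cells (10.98 ± 0.25), which also overlapped, and Nutlin asynchronous cells (11.29 ± 0.14). For DDB2 and XPC the non-released groups were thus the highest of each treatment, and for GADD45A the asynchronous ones.

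Across the 15 libraries DDB2 and XPC had a Pearson r of 0.971 (0.972 over 13 libraries). For DDB2 and GADD45A r was 0.28 (0.191). DDB1 and RAD23B had 0.959, and RAD23B and ERCC2 0.881. These are descriptions over libraries that share their groups, and no p is given. The genes whose values ran most like DDB2 over 15 libraries were SCN2A (0.974), APAF1, the apoptosome scaffold (0.971), and XPC. For XPC they were TM7SF3 (0.972), DDB2 and APAF1 (0.967). For GADD45A they were SLC25A15 (0.978), ATP13A3 (0.962) and ARFGEF2 (0.955). Over 13 libraries SCN2A stayed nearest to DDB2, followed by F2R and ASTN2, XPC was nearest to LOC375010, F2R and TM7SF3, and GADD45A to SLC30A1, STX6 and CSDA.

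**Figure D5:**
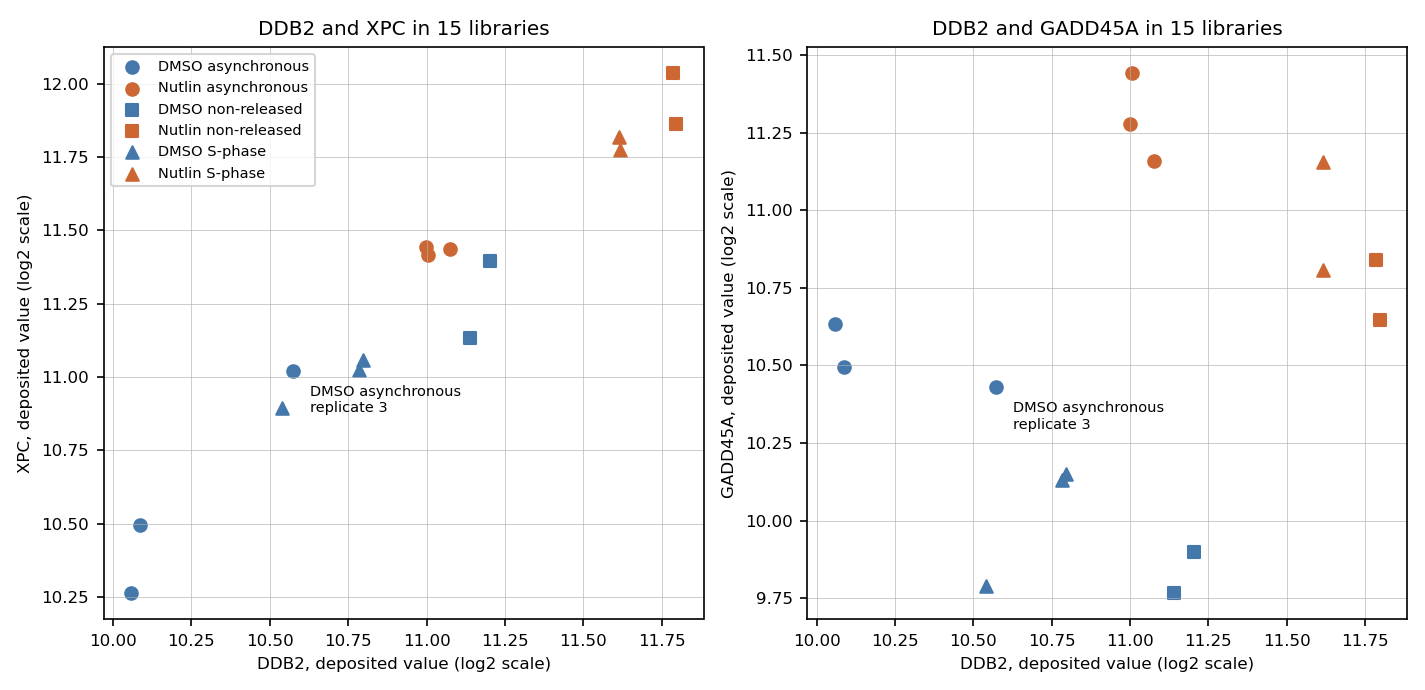
DDB2 (horizontal axis) against XPC (left) and GADD45A (right), deposited values on the log2 scale. Each point is 1 library, coloured by treatment and shaped by state. With XPC the points run along a line (r of 0.971 over 15 libraries), and with GADD45A (r of 0.28) the Nutlin libraries lie above the DMSO libraries while, within each treatment, non-released cells are to the right of and below asynchronous cells.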

How the data were processed

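RNA of 15 U2OS libraries was measured by single-read sequencing of 6 groups, taken from the library titles. The authors deposited 1 table of variance-stabilised values on a log2 scale. Per the submitters' processing notes the tools were CASAVA 1.8.2, TopHat 0.9, HTSeq and DESeq2 1.10.1 with build hg19, and the role of each, the annotation and the strand are not given in the sources used here. Each library has 1 size factor in these values. Reads were recovered by inverting the transformation (whole within 0.05 for 99.04% of genes or more per library) and used for depth, normalised reads and voom. Values of low genes are compressed on this scale.

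Differences were tested two-sided with limma 3.58.1 (R 4.3.3) on the deposited values, with 1 mean per group over 15 libraries and eBayes with a mean-variance trend (9 residual and 4.66 prior degrees of freedom). A gene entered if its value exceeded the table's minimum by 1 unit in at least 2 libraries, which left 14298 genes for 12 comparisons, with Benjamini-Hochberg adjustment within each. The fit was also run on simulated independent normal values with known differences. These held no state differences, outlying library, depth differences or shared replicate effect, so such features were not tested. Alternatives were other filters, no trend, median centring, voom with library totals or (chosen after seeing the data) the authors' size factors, a replicate block, fits of the compared groups alone, 13 libraries, and each library left out. Named are all 10 members, at most 4 genes per list, direction and comparison by smallest p, 2 label checks, and the 3 genes most like DDB2, XPC and GADD45A. The members and lists were chosen with earlier results of these data known. Exon lengths and overlaps came from GENCODE v29, and 1 listed repair gene, GTF2H4, was not tested.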

Additional observations from a re-analysis of the deposited data

How the results depend on the processing

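DDB2 and GADD45A in asynchronous cells and DDB2 in S-phase cells kept their Nutlin calls under all 24 alternatives, and no call of a member changed direction. The number of members called in non-released cells under Nutlin, 1, became 3 with only the compared groups or over 13 libraries, and 2 with voom and the authors' size factors. It was 2 of 9 rather than 7 in DMSO S-phase against asynchronous cells with only the compared groups. In DMSO S-phase against non-released cells it went from 2 to 0 with only the compared groups, and to 1 with no filter or no trend. In Nutlin S-phase against asynchronous cells it went from 4 to 7 with only the compared groups or over 13 libraries. Leaving out each library in turn gave 3 members in asynchronous cells, 0 to 3 in non-released and 1 to 3 in S-phase cells under Nutlin. It gave 4 to 6 and 2 to 6 (non-released against asynchronous, DMSO and Nutlin), 6 to 8 and 2 to 5 (S-phase against asynchronous), and 0 to 2 and 0 (S-phase against non-released). The cause was not tested.

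Calls over all genes moved more: 351 in asynchronous cells under Nutlin (202 to 888 in alternatives other than leaving out 1 library), 131 in non-released (115 to 637) and 286 in S-phase cells (99 to 564). Between states the ranges were 3598 to 6812 (main 4854), 1010 to 4526 (3955) and 335 to 2032 (1000) in DMSO, and 3993 to 7809 (4933), 2791 to 5847 (3434) and 279 to 1539 (348) in Nutlin, for non-released and S-phase against asynchronous and S-phase against non-released cells. With library totals in voom the share of higher calls went from 49.9% to 72.0%, 50.9% to 69.1% and 58.7% to 38.5% in DMSO and from 50.1% to 69.3% and 65.8% to 39.1% in the first and last comparison in Nutlin. Leaving out 1 library gave 171 to 525, 22 to 274 and 88 to 466 calls under Nutlin in asynchronous, non-released and S phase. It gave 2400 to 5849, 2778 to 4466 and 233 to 1411 between states in DMSO, and 2570 to 5996, 1802 to 4445 and 72 to 663 in Nutlin. The shares of all genes printed beside the members move with these counts. Low read counts limit what can be said of GADD45G and ERCC5.

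Whether the replicate numbers pair the libraries is not settled, and the main fit has no replicate block. Same-numbered DMSO and Nutlin libraries had correlations of deviations from 0.074 to 0.351. Different-numbered ones had −0.351 to 0.27, most of them negative. DMSO asynchronous replicate 2 correlated best with Nutlin replicate 3 (0.221, beside 0.136 with replicate 2). In a group of 2 libraries the deviations mirror each other, so these correlations are not independent. With a replicate block 3, 2 and 3 members were called under Nutlin in asynchronous, non-released and S phase. The block gave DDB2 in non-released cells an adjusted p of 0.0451, and S-phase against asynchronous XPC 0.0311 (DMSO) and 0.0397 (Nutlin) and RAD23B 0.0708 (Nutlin). It changed no other call of a member.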
